A study of Mus musculus with 6 samples.

Results

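Heat shock proteins and endoplasmic reticulum (ER) chaperones are the proteins that fold, refold and quality-check other proteins, and 38 of their genes were followed here across 6 microarrays. The genes were taken by name: 14 that act in the cytosol and nucleus, 3 in mitochondria and 21 in the ER. For each gene the probe set that named it alone and had the highest mean over the arrays was used, which left 35 genes. Hsp90ab1 and Hsf1 were not listed in the platform annotation used here, and Hspa1b was named only together with Hspa1a, so none of these 3 has a value of its own. Hspb1, a small heat shock protein, lay between 5.04 and 5.30 on the log2 scale, below 5.37, the median of all values in the table, on every array. The remaining 34 genes (10 cytosolic, 3 mitochondrial, 21 ER) were among the 11516 genes whose highest array reached 5.37, of 19938 genes with a probe set.

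The arrays came from bone marrow of mice carrying the genotype Spic(igfp/igfp), cultured in 10% serum and 20 ng/ml of the myeloid growth factor GM-CSF. All 6 arrays share this genotype and cytokine. On day 6 heme (80, its unit written µm) or vehicle alone (NaCl at 0.15 M plus 10% NH4OH) was added, and the attached cells were taken 6, 24 or 72 h later, with 1 array for each treatment and time. Whether different mice or dishes stand behind the arrays is unstated, cells that did not attach were not sampled, and the sources used here do not describe the igfp allele. Each group holds 1 array, so precision is low and values compared within a single time have no replicate check. A heme test over the 3 times takes its error from how far the heme minus vehicle difference varied between times. A test between times compares 2 arrays with 2, 1 vehicle and 1 heme at each time, and takes its error from the same variation. In limma that variance is also moderated by the variance of all genes (residual df 2, prior df 7.17). Neither test measures variation between replicate cultures. The series asks about heme and the making of iron-recycling macrophages, and the comparisons here concern the chaperone genes of the same cells.

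Array medians lay between 5.34 and 5.45, so the columns were not identical in distribution, and the 6 h heme array had the highest. At 6 h the median heme minus vehicle difference of all 11516 genes was -0.10 on the log2 scale as deposited and -0.22 after centring each array on its median, so small differences at 6 h carry that shift. All 7 macrophage markers measured reached 5.37 on every array. The dendritic cell markers Itgax and H2-Aa were high on every array, while Flt3, Zbtb46 and Cd209a stayed below 5.37 on all 6.

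Cells keep separate chaperone systems for each compartment. In the cytosol, misfolded proteins release the transcription factor HSF1, which binds heat shock elements and switches on HSP70 and HSP90 chaperones and their cofactors. Mitochondria import proteins with an HSP70 and fold them in an HSP60 and HSP10 chamber. In the ER, misfolded proteins activate the sensors IRE1, PERK and ATF6, the unfolded protein response, in which XBP1 and ATF6 act on ER stress elements of the chaperone genes. Heme can damage proteins through oxidation, and secretory load sets the demand for ER chaperones.

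The start regions of these genes carry the elements that such factors are known to bind, and a few are shown to let the groups be compared by sequence as well as by level. RefSeq promoter windows of GRCm38.p6, 250 bases before to 50 after a start, were matched for 30 of the 38 genes and searched on both strands. The ER stress element (CCAAT, any 9 bases, then CCACG) was found for 7 of 19 ER genes with a window (Hspa5, Hsp90b1, Calr, Canx, Pdia6, Dnajc3 and Creld2), or 36.8%, against 0.137% of the 27025 genes of the table and 0.161% of the 9291 windowed genes among the 11516. Its other form (ATTGG, any base, then CCACG) was found for Dnajb11 and Herpud1 (0.0444% of the table). The CCAAT box, which lies inside both forms, was found for 17 of the 19 ER genes and 41.1% of the table. The heat shock pair, GAANNTTC or TTCNNGAA, was found for 6 of 9 cytosolic genes, for both mitochondrial genes with a window, for 0 of 19 ER genes and for 17.0% of the table. The element of 3 units, that pair followed after any 2 bases by GAA (first form) or TTC (second form), was found for Hsph1, Hspd1 and Hspe1 and for 0.662% of the table. Stretches before the start are printed 5′ to 3′ on the gene's own strand, with these matches in capitals: the heat shock pair in Hspa1a, overlapping heat shock elements in the stretch between the start of Hspe1 and the nearer start of Hspd1, which are transcribed away from each other, and the ER stress element in Hspa5, Pdia6, Creld2 and Herpud1. They lie at chr17:34972157-34972406 (minus strand, Hspa1a), chr1:55087933-55088147 (plus strand, Hspe1), chr2:34771840-34772089 (plus, Hspa5), chr12:17266339-17266588 (plus, Pdia6), chr15:88819396-88819645 (plus, Creld2) and chr8:94386179-94386428 (plus, Herpud1).
Hspa1a: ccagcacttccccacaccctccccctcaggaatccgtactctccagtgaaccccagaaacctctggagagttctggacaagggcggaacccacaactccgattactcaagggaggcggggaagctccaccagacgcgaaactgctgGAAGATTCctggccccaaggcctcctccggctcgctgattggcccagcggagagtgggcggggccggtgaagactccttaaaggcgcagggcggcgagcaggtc
Hspe1 and Hspd1: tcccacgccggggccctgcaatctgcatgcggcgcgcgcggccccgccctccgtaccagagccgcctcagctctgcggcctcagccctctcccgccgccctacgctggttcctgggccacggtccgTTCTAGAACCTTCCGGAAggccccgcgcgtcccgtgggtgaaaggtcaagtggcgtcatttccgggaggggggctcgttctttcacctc
Hspa5: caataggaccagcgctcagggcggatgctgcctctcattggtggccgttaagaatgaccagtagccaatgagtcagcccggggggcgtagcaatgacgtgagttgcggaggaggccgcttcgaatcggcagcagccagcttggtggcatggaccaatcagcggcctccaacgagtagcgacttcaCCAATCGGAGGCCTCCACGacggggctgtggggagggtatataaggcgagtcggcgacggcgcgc
Pdia6: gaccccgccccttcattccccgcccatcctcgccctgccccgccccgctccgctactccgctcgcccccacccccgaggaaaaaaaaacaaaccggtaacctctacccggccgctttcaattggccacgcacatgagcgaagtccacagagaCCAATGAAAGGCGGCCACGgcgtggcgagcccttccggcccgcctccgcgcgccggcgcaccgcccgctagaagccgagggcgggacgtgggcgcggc
Creld2: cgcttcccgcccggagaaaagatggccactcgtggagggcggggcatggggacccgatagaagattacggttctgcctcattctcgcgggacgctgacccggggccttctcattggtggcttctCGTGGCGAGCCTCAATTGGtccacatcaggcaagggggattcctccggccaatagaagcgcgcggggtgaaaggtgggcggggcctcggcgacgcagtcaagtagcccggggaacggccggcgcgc
Herpud1: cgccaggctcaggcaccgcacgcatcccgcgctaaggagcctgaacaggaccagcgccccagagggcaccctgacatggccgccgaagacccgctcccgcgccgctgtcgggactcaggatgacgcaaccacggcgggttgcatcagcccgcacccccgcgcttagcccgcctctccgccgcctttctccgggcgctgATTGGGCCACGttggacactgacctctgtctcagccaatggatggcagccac
A match is a description of letters and does not show that a factor was bound in these cells.

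With heme, no chaperone gene measured passed the test over the 3 times: 0 of 34 were called at 0.05 after Benjamini-Hochberg adjustment over the 11516 genes in limma, where 1.72% of all genes were. An unadjusted p below 0.05 was reached by 2 members, Sdf2l1 and Dnajb9, both lower with heme, against 10.6% of all genes in either direction and 5.65% in that one. The means of heme minus vehicle ran from -0.34 to 0.12 in the cytosolic group, from -0.14 to 0.01 in the mitochondrial group and from -0.44 to -0.03 in the ER group (n = 3 times, log2). The 95% intervals of these means in limma stayed between -0.85 and 0.45 for the 10 cytosolic genes. The lower end was that of Hspa1a (-0.85 to 0.16), and the other 9 stayed between -0.44 and 0.45. The mitochondrial intervals stayed between -0.44 and 0.38. The ER intervals stayed between -0.81 and 0.40. At single times, 1 of 34 members stood 2-fold or more apart at 6 h, 0 at 24 h and 0 at 72 h, against 1.63%, 1.91% and 1.86% of all genes. At 1.5-fold the counts were 2, 1 and 2, all lower with heme, against 10.2%, 6.53% and 6.89% of all genes in either direction. In the lower direction alone, 793, 326 and 308 of the 11516 genes stood that far apart at 6, 24 and 72 h.

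**Figure D1:**
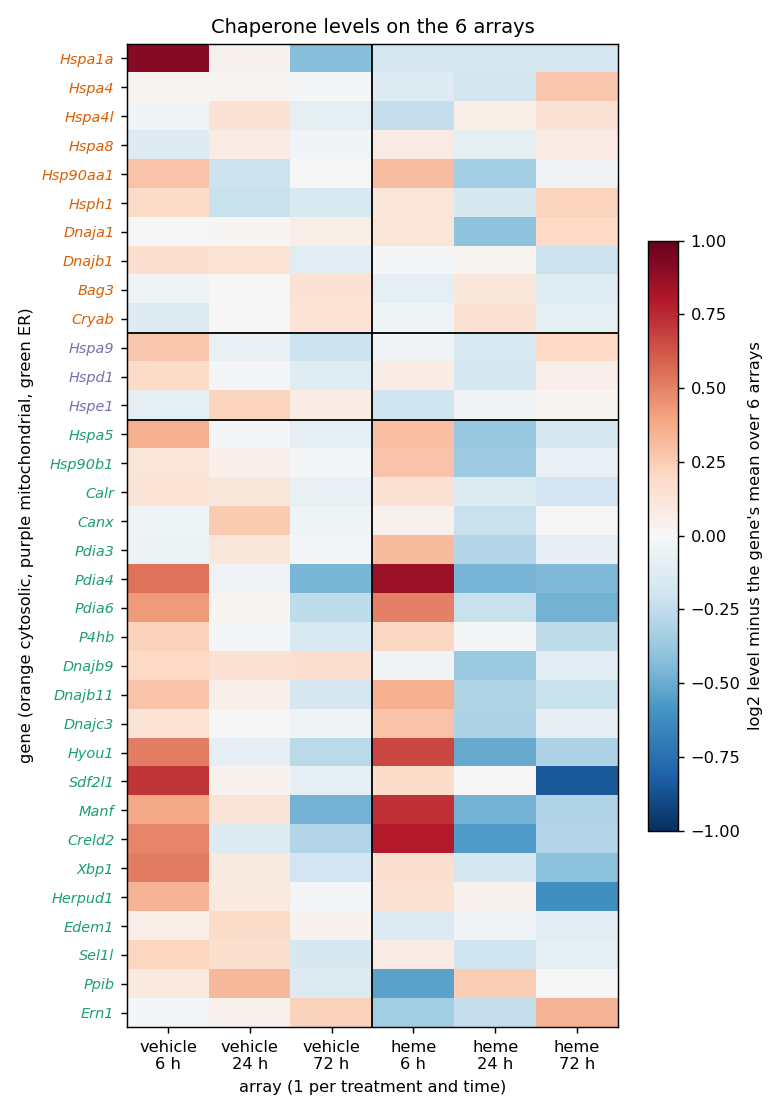
Log2 level of each of the 34 chaperone genes on each array, as the difference from that gene's mean over the 6 arrays (colour, from -1 to 1); rows are genes (orange cytosolic, purple mitochondrial, green ER) and columns are arrays. Most cytosolic and mitochondrial rows are pale throughout, Hspa1a stands out on the 6 h vehicle array alone, and many ER rows are red at 6 h in both treatments and blue at 24 and 72 h with heme.

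The cytosolic genes had median differences of -0.06, -0.11 and 0.12 at 6, 24 and 72 h, against -0.10, -0.02 and 0.03 over all genes. The stress-inducible HSP70 gene Hspa1a (probe set 10450369) measured 6.93 on the 6 h vehicle array and 5.85 on the 6 h heme array, 6.05 and 5.84 at 24 h, and 5.59 and 5.85 at 72 h. It was the member 2-fold apart, 2.12-fold lower with heme at 6 h, and the 6 h vehicle array was the one that stood apart: the 3 heme arrays lay within 0.01 of each other, at 5.84 or 5.85. Its mean difference was -0.34 ± 0.68 (SD, n = 3 times; limma, adjusted p = 0.713). The probe set shared by Hspa1a and Hspa1b, whose sequences are nearly identical, read 6.94 on that vehicle array and between 6.25 and 6.64 on the other 5, a difference of -0.30 at 6 h. Both probe sets were highest on the 6 h vehicle array, by unequal amounts, and ordered the other arrays differently.

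The constitutive HSP70 gene Hspa8 (10528021) measured 12.10, 12.31 and 12.20 with vehicle and 12.31, 12.13 and 12.31 with heme at 6, 24 and 72 h. Its differences of 0.21, -0.17 and 0.11 went both ways. Of the other 2 probe sets that named Hspa8 alone, 1 followed these values closely and 1 (10584572) gave 0.63, -0.32 and 0.09. Probe sets 10584576 and 10584578, which name 3 genes including Hspa8, gave 0.40, -0.20 and 0.79 and 0.42, -0.17 and 0.77. Hspa8 has many processed copies in the genome, and which copy a probe set reads was not resolved. Hsp90aa1, the inducible HSP90, differed by 0.04, -0.11 and -0.04. The HSP110 genes act as exchange factors for HSP70: Hsph1 differed by -0.07, 0.06 and 0.37, Hspa4 by -0.16, -0.21 and 0.28, and Hspa4l by -0.21, -0.08 and 0.24.

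HSP40 proteins hand substrates to HSP70. Dnajb1, which HSF1 is known to induce strongly, was lower with heme at all 3 times by small amounts (-0.20, -0.11 and -0.12; limma, adjusted p = 0.842), and Dnaja1 differed by 0.11, -0.41 and 0.13. Bag3, an HSP70 partner in selective autophagy, differed by -0.05, 0.12 and -0.27, and the small heat shock protein Cryab by 0.08, 0.15 and -0.24. No cytosolic member was higher with heme at all 3 times, nor was any mitochondrial or ER member, against 12.8% of all genes.

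None of the 3 mitochondrial chaperones had a mean difference past 0.14 in size. The HSP60 gene Hspd1 (10375240) measured 10.35, 10.14 and 10.04 with vehicle and 10.23, 9.98 and 10.21 with heme at 6, 24 and 72 h, so its differences were -0.12, -0.17 and 0.18 (limma, adjusted p = 0.966). The other probe set naming Hspd1 alone (10354732) gave -0.20, -0.08 and 0.33, the same signs at other sizes. The mitochondrial HSP70 gene Hspa9 differed by -0.30, -0.08 and 0.40, and the HSP10 gene Hspe1 by -0.11, -0.26 and -0.06. All 3 were lower with heme at 6 and at 24 h, times at which 63.5% and 53.2% of all genes were, and 1 was at 72 h. Hspd1 and Hspe1, which share the start region printed above, were both lower with heme at 6 and 24 h and had differences of opposite sign at 72 h. The second probe set of Hspe1 (10346303) gave -0.23, -0.25 and -0.10.

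**Figure D2:**
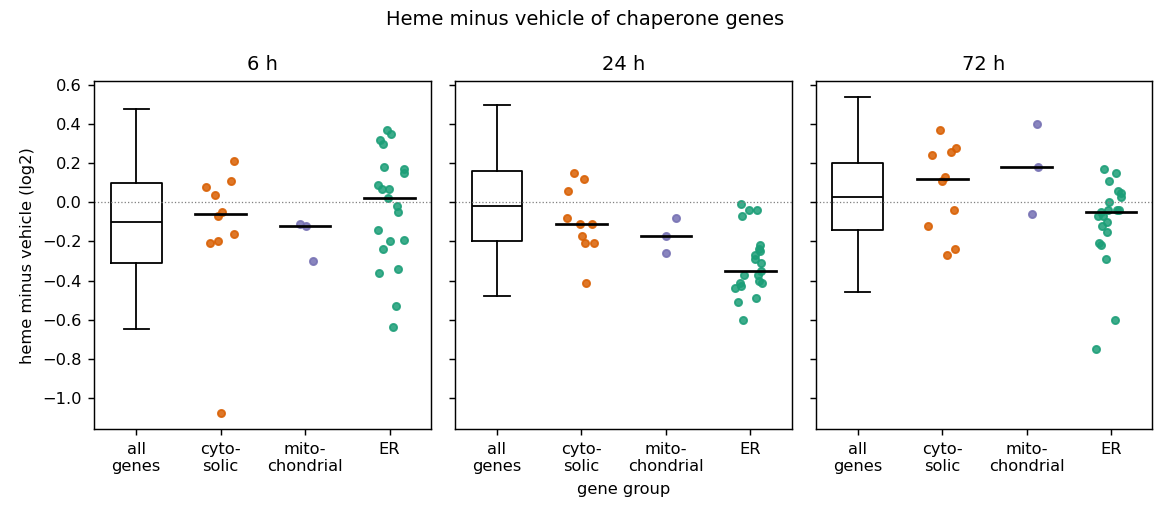
Heme minus vehicle difference (log2) at 6, 24 and 72 h; each point is a gene, the black bar is the group's median, and the box shows the quartiles of all 11516 genes with whiskers at their 5th and 95th percentiles. The 21 ER genes straddle 0 at 6 h, lie between -0.60 and -0.01 at 24 h, and cluster near 0 at 72 h apart from Sdf2l1 (-0.75) and Herpud1 (-0.60).

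At 24 h all 21 ER genes were lower with heme, from -0.60 to -0.01 with a median of -0.35, against a median of -0.02 and 53.2% below 0 over all genes. Under the other normalizations, filters and scales 18 to 21 of them were. At 6 h, 10 of 21 were below 0 (63.5% of all genes) with a median of 0.02 (-0.10 after median-centring), and at 72 h 14 of 21 were (44.7% of all genes) with a median of -0.05. Single arrays give no test of the 24 h values, and 1 member, Manf, was 1.5-fold or more lower there, against 2.83% of all genes. The summed linear level of 8 neutrophil and granulocyte precursor markers also differed at 24 h, 7822 with heme and 2001 with vehicle, with 6 and 5 of the 8 at or above 5.37; its part in the ER values was not tested.

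Among the lumenal chaperones, the ER HSP70 gene Hspa5 (10471586), also called BiP, measured 11.49, 11.11 and 11.04 with vehicle and 11.43, 10.75 and 10.97 with heme at 6, 24 and 72 h. The heme array was the lower one at each time, by 0.05 at the least and by 0.37 at 24 h, and the mean was -0.16 ± 0.18 (SD, n = 3 times; limma, adjusted p = 0.821). The ER HSP90 gene Hsp90b1 differed by 0.18, -0.41 and -0.04. The BiP cofactors Dnajb11 and Dnajc3 differed by 0.07, -0.35 and -0.04 and by 0.15, -0.31 and -0.05. These 3 genes share a pattern of small positive values at 6 h, values near -0.4 or -0.3 at 24 h and values near 0 at 72 h.

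The lectin chaperones Calr and Canx, which hold glycoproteins during folding, differed by 0.02, -0.25 and -0.12 and by 0.09, -0.49 and 0.05. Of the disulfide isomerases, Pdia3 differed by 0.37, -0.40 and -0.07, Pdia6 by 0.07, -0.24 and -0.22, and P4hb by -0.02, -0.01 and -0.10. P4hb, which also serves in collagen hydroxylation, was the nearest to 0 of the 3 at 6 and 24 h, and Pdia3 was at 72 h. Ppib, an ER proline isomerase, was lower with heme at 6 h by 0.64 (9.71 against 10.34) and differed by -0.07 and 0.15 later.

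Lower values with heme at all 3 times were measured for 7 of 21 ER genes, Hspa5, P4hb, Dnajb9, Sdf2l1, Xbp1, Herpud1 and Edem1, besides Dnajb1 and Hspe1 in the other groups, or 9 of 34 members against 17.4% of all genes. Dnajb9, a BiP cofactor that restrains IRE1, measured 8.87, 8.82 and 8.84 with vehicle and 8.64, 8.30 and 8.56 with heme, a mean of -0.35 ± 0.15 (SD, n = 3 times; limma, adjusted p = 0.383). The heme arrays all lay below the vehicle arrays. Sdf2l1, which works with DNAJB11 on BiP clients, had a mean of -0.44 ± 0.36 (SD, n = 3 times; limma, adjusted p = 0.335), with differences of -0.53, -0.04 and -0.75. In ER-associated degradation, which retrieves misfolded proteins for the proteasome, Herpud1 differed by -0.19, -0.04 and -0.60, Edem1 by -0.20, -0.22 and -0.15, and Sel1l by -0.14, -0.37 and 0.06.

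Xbp1, the transcription factor that IRE1 activates by splicing its RNA, was lower with heme by 0.36 (9.31 against 9.67), 0.27 (8.97 against 9.24) and 0.21 (8.74 against 8.96). The mean was -0.28 ± 0.07 (SD, n = 3 times; limma, adjusted p = 0.524). Ern1, which encodes IRE1, differed by -0.34, -0.29 and 0.11. Total Xbp1 level does not show how much of it is spliced.

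Part of the ER group was lower at 72 h than at 6 h in both treatments. All 6 arrays came after heme or vehicle was added, so time in culture and time since that addition cannot be told apart. The fit over both treatments has 2 arrays at each time, 1 vehicle and 1 heme. From 6 to 72 h, 7 of 21 ER genes fell in it (limma, adjusted p below 0.05). Of the other groups, 0 of 10 cytosolic and 0 of 3 mitochondrial genes did, and 0 members rose. Of all genes, 3.53% fell and 3.06% rose. Those 7 were Pdia4, Pdia6, Hyou1, Sdf2l1, Manf, Creld2 and Xbp1. The median change of the ER group was -0.37 with vehicle and -0.46 with heme, against -0.06 and 0.05 over all genes, and 16 of 21 were lower in both treatments (30.3% of all genes). The cytosolic medians were -0.06 and 0.00, and the mitochondrial ones -0.31 and 0.22. Of the further lists described below, TRiC chaperonin and prefoldin genes had medians of -0.38 and 0.15, and ER folding and translocation genes -0.25 and -0.19. With vehicle alone the ER median was thus close to those of the mitochondrial and TRiC lists. At an unadjusted p below 0.05 the counts were 1 of 10 cytosolic (Hspa1a), 0 of 3 mitochondrial and 12 of 21 ER genes, of which 11 were lower and Ern1 was higher; 18.5% of all genes reached that p in either direction and 9.14% in the lower one. With the 24 h arrays left out, or without treatment in the fit, 2 genes passed: Pdia4 in both, with Manf in the one and Pdia6 in the other. The changes themselves are the same in those fits.

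Pdia4, a disulfide isomerase with several thioredoxin-like domains, had the largest change of the 7. It (10544525) measured 10.40, 9.82 and 9.40 with vehicle and 10.72, 9.39 and 9.42 with heme at 6, 24 and 72 h, a change of -1.15 (SE 0.20; limma, adjusted p = 0.0095) or 2.22-fold. Its dimmer probe set, 10544538, measured 6.60, 5.95 and 5.55 with vehicle and 7.56, 5.86 and 6.08 with heme. Both probe sets were highest on the 6 h heme array, where the difference from vehicle was 0.32 by the brighter and 0.96 by the dimmer.

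Creld2, an ER protein induced by the unfolded protein response, measured 8.45, 7.83 and 7.67 with vehicle and 8.75, 7.39 and 7.67 with heme. Its change was -0.93 (SE 0.20; limma, adjusted p = 0.0250). Manf, a small secreted protein held in the ER by BiP, measured 8.93, 8.68 and 8.08 with vehicle and 9.28, 8.08 and 8.25 with heme, a change of -0.94 (SE 0.23; limma, adjusted p = 0.0428). In both genes the heme array was the higher one at 6 h and the lower one at 24 h.

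Hyou1, the large HSP70-like chaperone of the ER, measured 8.40, 7.80 and 7.62 with vehicle and 8.56, 7.39 and 7.58 with heme, a change of -0.88 (SE 0.19; limma, adjusted p = 0.0228). Pdia6, an isomerase that also attenuates IRE1, measured 10.11, 9.70 and 9.43 with vehicle and 10.19, 9.46 and 9.21 with heme, a change of -0.83 (SE 0.17; limma, adjusted p = 0.0197). For each of these 5 genes the arrays of both treatments were lower at 72 h than either 6 h array.

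Sdf2l1 measured 9.89, 9.21 and 9.08 with vehicle and 9.36, 9.17 and 8.33 with heme, a change of -0.91 (SE 0.20; limma, adjusted p = 0.0255). Xbp1 changed by -0.64 (SE 0.16; limma, adjusted p = 0.0496), from 9.67 to 8.96 with vehicle and from 9.31 to 8.74 with heme. Its call is the nearest to the threshold, with adjusted p from 0.0338 to 0.16 over the alternatives in limma. Dnajb11 (-0.52; limma, adjusted p = 0.135), Herpud1 (-0.55; 0.137), Hspa5 (-0.46; 0.179) and P4hb (-0.42; 0.190) were lower and did not pass. Canx, Edem1 and Dnajb9 were near 0 (-0.02, -0.01 and -0.05).

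**Figure D3:**
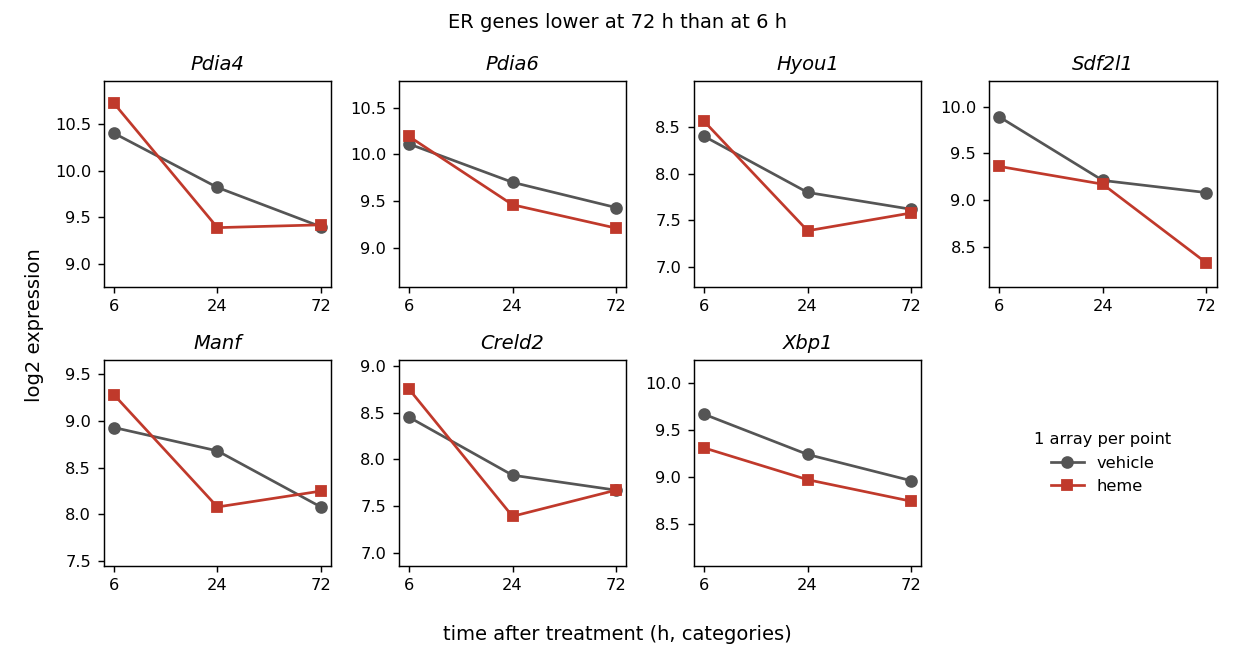
Log2 level at 6, 24 and 72 h (equally spaced categories) of the 7 ER genes that fell from 6 to 72 h, with vehicle in grey and heme in red, 1 array per point; each panel spans 2.2 log2 units. Vehicle declines stepwise in every panel, while Pdia4, Hyou1, Manf and Creld2 with heme start above vehicle, lie below it at 24 h and are level with or close to it at 72 h.

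The steps of the decline were spread differently in the arrays of the 2 treatments. The ER median changed by -0.24 from 6 to 24 h and by -0.16 from 24 to 72 h with vehicle, and by -0.34 and 0.10 with heme. Over all genes these medians were -0.01 and -0.04 with vehicle and 0.06 and 0.01 with heme. From 24 to 72 h, 19 of 21 ER genes were lower with vehicle (57.8% of all genes) and 8 of 21 with heme (49.1% of all genes). These values share the 24 h arrays with the heme comparison at 24 h and restate it, and the difference between treatments could not be tested, since no residual degrees of freedom are left. From 6 to 24 h 0 of 34 members passed in limma (0.599% of all genes did), and 10 reached an unadjusted p below 0.05 (12.9% of all genes), 8 ER genes and Hsp90aa1 lower (5.77% of all genes) and Ppib higher. From 24 to 72 h 0 passed (0.564% of all genes), and Sdf2l1 alone reached an unadjusted p below 0.05 (7.77% of all genes).

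Of the genes that did not pass, Hspa1a was the one whose treatments parted most. It changed by -1.34 from 6 to 72 h with vehicle and by 0.00 with heme (limma, adjusted p = 0.232 over both). Hsp90aa1 changed by -0.50 and -0.65 from 6 to 24 h and by -0.27 and -0.35 from 6 to 72 h (limma, adjusted p = 0.162 and 0.362). Ern1 was higher at 72 h than at 6 h by 0.25 with vehicle and 0.69 with heme (limma, adjusted p = 0.189), opposite to Xbp1.

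**Figure D4:**
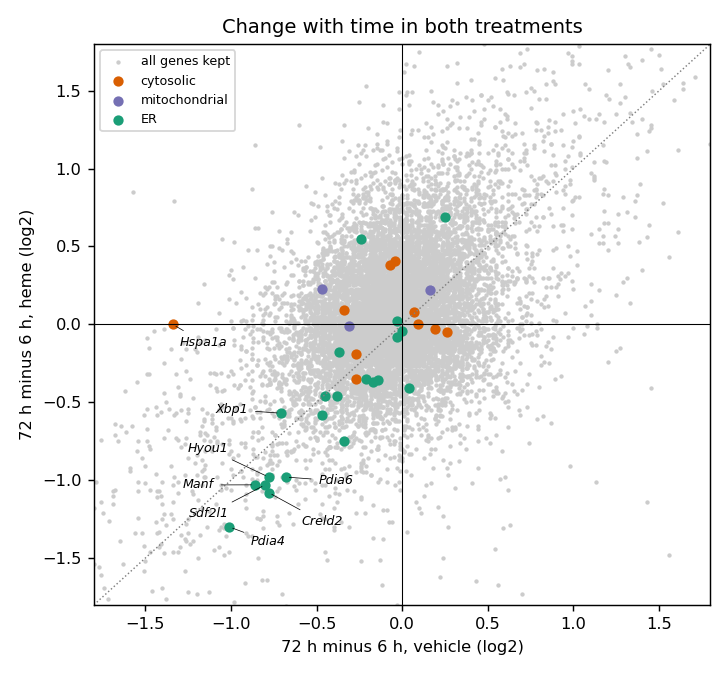
Change from 6 to 72 h (log2) with vehicle (horizontal) and with heme (vertical); grey points are the 11516 genes (219 lie outside the axes, which end at 1.8), coloured points are chaperone genes, and the dotted line marks equal change. The 7 named ER genes lie together in the lower left near the dotted line, and Hspa1a lies alone at the left, at -1.34 with vehicle and 0.00 with heme.

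Marker levels of other cell types also differed between times. The summed linear level of the 8 neutrophil and precursor markers was 10000, 2001 and 1043 with vehicle and 11573, 7822 and 1610 with heme at 6, 24 and 72 h. Such sums follow the brightest markers, here S100a8 and S100a9. For 8 fibroblast and stromal markers the sum was 638, 580 and 1118 with vehicle and 459, 571 and 1748 with heme, with Lum and Pdgfrb under 5.37 throughout. For 7 macrophage markers the sum was 8676, 9991 and 11049 with vehicle and 7657, 11433 and 13237 with heme. At 24 h 4 of these 7 were higher with heme and 3 lower. Cd14 read 11.32 with heme against 9.92, while Fcgr1 read 8.12 against 8.93 and Mrc1 9.44 against 10.30. For 8 dendritic cell markers the sum was 8460, 8405 and 7611 with vehicle and 9474, 8345 and 6890 with heme. From 6 to 72 h, 2 of the 5 that reached 5.37 fell, Cd24a (-1.21; limma, adjusted p = 0.0150) and Dpp4 (-1.42; 0.00283). Itgax, H2-Aa and Ccr7 changed by -0.27, -0.06 and 0.30 and did not pass. Of 7 B and plasma cell markers, a lineage rich in ER chaperones, Jchain, Mzb1 and Cd79a were below 5.37 on all arrays. Sdc1, Cd79b and Ighm reached it on every array, and Pou2af1 on the 24 h heme array alone. Their sums were 313 and 321 at 6 h and from 458 to 685 later for the 7 markers together. Sdc1, which other cells also express, read 6.76 and 6.62 at 6 h and from 8.05 to 8.80 later. In the 72 h minus 6 h test 6 of 8 neutrophil and precursor markers fell. Of the markers that reached 5.37, 3 of 7 macrophage, 3 of 6 stromal and 1 of 4 B and plasma cell markers rose. Of all genes 3.53% fell and 3.06% rose. Mast cell, basophil and erythroid marker sums stayed between 121 and 207. The part of the neutrophil, stromal, macrophage and dendritic cell markers in the decline of ER genes was not tested, and in whole cultures fewer cells of a type and less RNA per cell cannot be told apart.

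The wider chaperone network gave 0 members past the heme test in 6 further lists: 0 of 25 chaperones and cofactors that are cytosolic apart from Serpinh1, 0 of 14 subunits of the TRiC chaperonin and prefoldin, 0 of 16 mitochondrial chaperones and proteases, 0 of 32 ER folding and translocation genes, 0 of 16 genes of ER-associated degradation and 0 of 17 sensors and outputs of the unfolded protein response (limma; unadjusted p below 0.05 for 2, 0, 1, 1, 1 and 2, against 10.6% of all genes). Dnajb4, a cytosolic HSP40, came closest, at 0.36, 0.65 and 1.36 above vehicle for 6, 24 and 72 h (adjusted p = 0.0972 in limma). In the same list the ER-resident collagen chaperone Serpinh1, which stromal cells express highly, differed by -0.16, 0.52 and 0.85 and the HSP90 partner Ptges3 by 0.32, 0.27 and 0.58. Both mean differences were near 0.4, with adjusted p of 0.522 and 0.299 in limma.

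At 6 h all 14 TRiC and prefoldin genes were lower with heme (63.5% of all genes were). Their median was -0.24 beside the all-gene median of -0.10, both as deposited. Median-centring moved the all-gene median to -0.22, and the median of this list was not taken on that scale. At 72 h 11 of 14 were higher (55.3% of all genes were), with a median of 0.23 against 0.03. Cct3, Vbp1 and Cct5 had mean differences of 0.22, -0.13 and -0.11. The mitochondrial list had medians of -0.23, -0.02 and 0.14, and its largest mean differences were those of Hscb (-0.44), an HSP40 for iron-sulfur cluster transfer, Clpb (-0.26) and the protease Htra2 (0.25). Of the ER folding genes Ssr4, Erp29 and Spcs2 had means of -0.33, -0.24 and -0.24, and of the degradation genes Nploc4, Edem3 and Erlec1 had 0.41, -0.32 and -0.23.

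Outputs of the unfolded protein response had differences of either sign with heme. The stress factor Ddit3, or CHOP, differed by -0.24, -0.64 and -0.54 (limma, adjusted p = 0.199), the glutathione-degrading enzyme Chac1 by 0.33, 0.77 and 0.01 (0.474) and asparagine synthetase Asns by 0.31, 0.42 and 0.33 (0.340). With time, Asns fell from 6 to 72 h (-0.98; limma, adjusted p = 0.00667), as did 3 of the 32 ER folding genes, the proline isomerase Ppic (-1.15; 0.0119), the translocon-associated Ssr2 (-0.83; 0.0150) and the translocon subunit Sec61b (-0.72; 0.0487). Of all genes 3.53% fell in that test and 6.59% passed in either direction. Hscb rose (0.86; limma, adjusted p = 0.0315), and 0 genes of the other cytosolic, TRiC and degradation lists passed (unadjusted p below 0.05 in limma for 3 of 25, 2 of 14 and 4 of 16, against 18.5% of all genes).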

How the data were processed

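The authors deposited log2 expression values of 6 single-colour arrays, produced by RMA (submitters' processing notes) with quantile normalization in the ArrayStar software (series' design text), versions unstated. RMA summarises several probes into 1 value and compresses differences of dim probe sets. The table holds 35556 probe sets: 21789 name a single gene, 1621 several and 12146 none. Symbols were updated by gene identifier from the GRCm38.p6 table (21698 matched). Members, gene lists and tests were chosen with earlier results of these data known.

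Heme and time effects were fitted with limma 3.58.1 in R 4.3.3 (lmFit, eBayes, two-sided) using every array, an additive model of treatment plus time (residual df 2, prior df 7.17) and Benjamini-Hochberg adjustment over 11516 genes. The step was tested on simulated data. Heme and vehicle arrays are paired by their labelled time. Alternatives changed the normalization (repeated quantile, cyclic loess, median-centring), the level filter, the probe set rule, the log2 offset (16), the eBayes options, the model terms or the times included. Per-array values were given for members past a test or 2-fold apart and for Hspa5, Hspa8, Hspd1 and Xbp1; in other lists up to 3 genes with the largest mean difference and those past a test were named. Dnajb9, Ppib, Ern1, Canx and Edem1 were described further after their values were seen.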

Additional observations from a re-analysis of the deposited data

Results flagged for a closer look

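For 4 of the 34 members the heme minus vehicle difference had opposite signs at 2 times and was at least 0.3 from 0 at both, as it was for 8.59% of all genes kept. Each rests on 1 array per treatment and time, so the difference between times was not tested. All 4 are ER genes and are higher with heme at 6 h and lower at 24 h: Pdia3 by 0.37 and -0.40, Pdia4 by 0.32 and -0.43, Manf by 0.35 and -0.60, and Creld2 by 0.30 and -0.44. The mitochondrial gene Hspa9, at -0.30 at 6 h and 0.40 at 72 h as rounded, lay at the edge of the rule and was not among the 4.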

How the results depend on the processing

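The heme test called 0 of 34 members under every alternative run, including without the time term (no replicate block: 0 members and 18 genes in all, against 0 and 198 with it) and without the 6, 24 or 72 h pair (0 members; 521, 12 and 201 genes in all). The ER count that fell from 6 to 72 h was 7 in the fit as reported and 2 without the treatment term or without the 24 h pair (318 and 412 genes in all, against 759); Xbp1 also did not pass after median-centring, with no level filter or with a variance trend (limma, adjusted p = 0.0684, 0.0539 and 0.0521). From 6 to 24 h, where 0 members and 69 genes passed, 2 ER members did after median-centring (171 genes; 48.0% of them higher, against 37.7%) and 1 without the 72 h pair (214 genes); 23 genes passed after cyclic loess, 109 with the mean of probe sets, 104 with robust eBayes and 1 without the treatment term. After cyclic loess 76.2% of heme calls over all genes were higher, against 65.7%. At 6 h median-centring moved the cytosolic, mitochondrial and ER medians to -0.17, -0.23 and -0.10, and cyclic loess moved the cytosolic median to 0.03. Members 2-fold apart at 6 h numbered 0 with an offset of 16 or a threshold of 4-fold, and at 1.5-fold 2, 1 and 2 members stood apart at 6, 24 and 72 h. The causes were not tested. Other group medians moved by less than 0.1. The count of ER genes below 0 at 24 h, the values of other probe sets and the 24 h minus 6 h alternatives were added after seeing the data. With 1 array per group, signal over background and array number limit what small differences can show.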
